A study of Mus musculus with 12 samples.

Results

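The change with age, from embryonic day E15.5 to postnatal day 5 (P5), was described in the retinal pigment epithelium (RPE) of mice labelled Sox9.cKO, a conditional knockout (cKO) of the transcription factor gene Sox9. The members of the comparison were the 13000 genes, of 13942 in the deposited table, whose value lay above the table's floor of 50 in at least 3 of the 6 libraries labelled cKO. The study holds 12 poly(A) RNA libraries in 4 groups of 3: Sox9.cKO at E15.5, Sox9.cKO at P5, wild type (WT) at E15.5 and WT at P5, all from C57BL/6J mice. The labels do not say whether the 3 libraries of a group came from separate animals, so the p-values measure the spread between these libraries. Nothing in the labels gives the Cre driver, the deleted exons, any pooling of animals or the way the RPE was taken from the eye. Values are gene counts that the authors quantile-normalised, so every library holds the same set of values and the depth behind them is unknown.

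The RPE is the pigmented epithelium between the photoreceptors and the choroid. It makes melanin, recycles the retinal chromophore in the visual cycle, takes up shed photoreceptor outer segments, moves ions, lactate and glucose between retina and blood, and secretes factors that maintain the choroidal vessels. Its cells leave the cell cycle over late embryonic and early postnatal development and acquire these functions as the photoreceptors mature. SOX9 is present in RPE nuclei and is known to act with OTX2, LHX2 and MITF on genes of the mature RPE.

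The melanin list showed that all 6 libraries held pigmented tissue: premelanosome protein gene Pmel was 20182, 12599 and 24109.8 at E15.5 and 39044, 33277 and 60565 at P5. Genes of other tissues were also present at both ages. The mean log2 value over 18 periocular mesenchyme genes ran 10.18, 10.14 and 10.27 at E15.5 and 9.13, 8.27 and 8.31 at P5, and that over 22 endothelial genes 8.95, 9.04 and 9.26 at E15.5 and 10.82, 9.82 and 10.38 at P5. Of 23 photoreceptor genes, 23, 22 and 21 stood at the floor of 50 in the 3 E15.5 libraries, and their level at P5 was uneven: their mean log2 value ran 5.67, 5.67 and 5.68 at E15.5 and 7.09, 10.55 and 9.50 at P5. P5 cKO replicate 1 was the low one of the 3 for photoreceptor genes and the high one for endothelial and mesenchymal genes. In bulk tissue, fewer cells of a type and less RNA per cell cannot be told apart.

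Replicates of the younger group were the more alike. Pearson's r of log2 values over the members lay between 0.985 and 0.987 among the E15.5 cKO libraries and between 0.909 and 0.976 among the P5 cKO libraries. The median standard deviation of a member's log2 value was 0.118 at E15.5 and 0.233 at P5. Leaving out a single library ended some of the calls below. The adjusted p found without it is given for part of these, and the range of the count for some lists.

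Between E15.5 and P5, 2376 of the 13000 members rose in the libraries labelled cKO (18.3%) and 3522 fell (27.1%), by limma's moderated test on log2(value + 1) with Benjamini-Hochberg adjustment over 13523 genes tested, called at an adjusted p under 0.05. The remaining 7102 members passed the test in neither direction. More genes fell than rose, but the rises were larger: 1262 members rose and 1155 fell by at least 2-fold, and 131 rose and 44 fell by at least 8-fold. The median log2 change was 1.05 among the genes that rose, -0.78 among those that fell and -0.10 over all members, and list medians below are read against this last value. The 3 P5 and the 3 E15.5 libraries did not overlap in 5820 of the called members and overlapped in 78. Non-overlap was common over the whole table, at 60.2% of members. Of the members, 660 passed the filter through 1 age alone and so had to differ. Over the 11297 members above the floor in all 6 libraries the shares were 17.3% risen and 26.4% fallen. A gene at the floor may have had any value up to 50 before the floor was set. Folds against a group at the floor are therefore lower bounds, and log2 changes of such genes are changes against the floor.

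**Figure D1:**
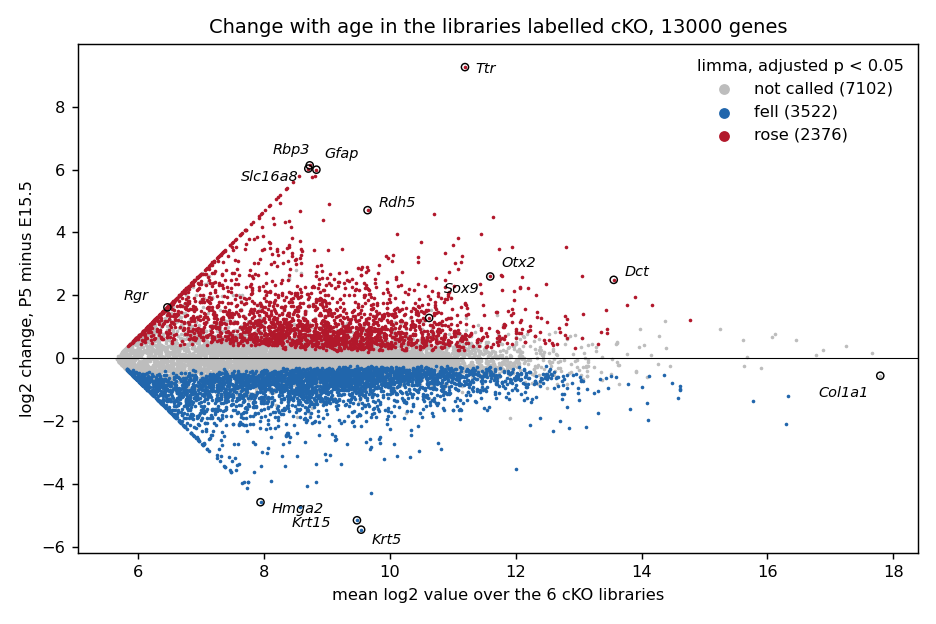
Each point is 1 of the 13000 members, with its mean log2 value over the 6 libraries labelled cKO on the x axis and its log2 change from E15.5 to P5 on the y axis. Red points rose, blue points fell and grey points were not called, and some genes of the text are named. The straight edges on the left are genes at the floor of 50 at 1 age. Ttr stands apart at the top with a log2 change of 9.26.

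Sox9, the targeted gene, lies on chromosome 11. Its values in the libraries labelled cKO overlapped those of WT at E15.5 and lay above them at P5. It was 1034, 990 and 1006 at E15.5 and 2136, 2384 and 2928 at P5 in cKO, and 1156, 1060.3 and 932 at E15.5 and 964, 1499.5 and 1111 at P5 in WT. All 3 P5 cKO libraries lay above all 3 E15.5 cKO libraries and above all 6 WT libraries, and the rise with age passed the test (log2 change 1.28 ± 0.17, adjusted p = 0.0002). The WT log2 change was 0.16, and the difference between the 2 changes did not pass (interaction 1.12 ± 0.24, adjusted p = 0.43). A count over the whole gene does not show whether the deleted exons, which the labels do not name, were missing from the transcripts, so the libraries are called by their labels. Most genes of the list of astrocytes and Müller glia, cells that also express Sox9, rose over the same interval in both genotypes. That list is not confined to glia and shares Car14 with the RPE transport genes below. The mean log2 value over 17 astrocyte and Müller glia genes in cKO ran 9.13, 8.98 and 9.06 at E15.5 and 10.57, 10.33 and 10.64 at P5. In WT it ran 9.17, 9.10 and 8.99 at E15.5 and 10.70, 11.14 and 10.38 at P5. The part of glia in the Sox9 rise was not tested.

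The pigment genes that passed the test all rose. Of 21 members of the melanin synthesis and melanosome list, 10 rose and none fell, with a median log2 change of 1.12 against -0.10 over all members. Dct, which encodes the dopachrome tautomerase of eumelanin synthesis, was 5693.5, 4013 and 5718 at E15.5 and 27560.1, 27560.1 and 30832 at P5. All 3 P5 libraries lay at over 4 times any E15.5 library, and close to each other (log2 change 2.50 ± 0.30, adjusted p = 0.00015). Tyrp1, the gene of a tyrosinase-related oxidase, was 2717, 1970.1 and 3158 at E15.5 and 12016, 6997 and 12871 at P5 (log2 change 2.0 ± 0.43, adjusted p = 0.0037). Its P5 replicate 2 was the lowest of that age and still above every E15.5 library. Myo7a, which encodes the myosin that moves melanosomes and phagosomes in RPE cells, was 388, 394 and 419.9 at E15.5 and 1632, 2148 and 2039 at P5 (2.26 ± 0.22, adjusted p = 4.2e-05). Tyr, the gene of tyrosinase, the rate-limiting enzyme of melanin synthesis, was 3775.5, 2690.5 and 3478 at E15.5 and 7368, 7142 and 10247 at P5 (1.31 ± 0.40, adjusted p = 0.022). Mlana rose by 1.53, Mlph by 1.79, Oca2 by 1.33, Gpr143 by 1.26, Pmel by 1.23 and Rab27a by 1.12 on the log2 scale. Several of these calls rested on single libraries. The adjusted p of Tyr was 0.081 without P5 cKO replicate 3. Without E15.5 cKO replicate 2 it was 0.082 for Pmel, 0.094 for Oca2, 0.098 for Mlph, 0.14 for Gpr143 and 0.10 for Rab27a. The number of pigment genes that rose was 4 to 10 when each cKO library was left out in turn, lowest without E15.5 cKO replicate 2 or without P5 cKO replicate 3.

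The letters TCATGTG, the M-box core bound by MITF-family factors, stood on either strand in 6 of 19 promoters found for the melanosome list (31.6%), against 3.77% of the 32851 promoters in the RefSeq table, each spanning 250 bases before to 50 after a gene start. Promoters were found for 16 of the 21 genes, some of which have more than 1 start. Over all 7 RPE lists the share was 6.02%, or 8 of 133 promoters, and 6 of these 8 were those of the melanosome list. The visual cycle list had the letters in 0 of 13 promoters. Over promoters of all members the share was 2.02%. The letters TAATCC, on either strand, bound by OTX factors, stood in 7.52% of promoters of the 7 RPE lists, in 7.06% of all promoters and in 5.54% of promoters of all members. M-box and OTX letters overlapped at 1 position. These are matches of letters, with no test and no measurement of binding. For 3 pigment genes that rose, 50 bases within the 250 before the start are shown 5′ to 3′ on the gene's strand with the M-box letters, or their reverse complement, in capitals (RefSeq, GRCm38.p6). The Tyr window lies at chr7:87493513-87493562, minus strand, the Dct window at chr14:118052369-118052418, minus strand, both outside annotated genes, and the Myo7a window at chr7:98109330-98109379, minus strand, in an intron of a longer Myo7a transcript.
Tyr: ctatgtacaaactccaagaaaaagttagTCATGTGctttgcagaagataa
Dct: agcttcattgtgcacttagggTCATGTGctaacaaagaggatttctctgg
Myo7a: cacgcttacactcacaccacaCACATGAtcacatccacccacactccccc

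Most visual cycle genes rose, several of them from low levels. Of 11 members, 8 rose and none fell, with a median log2 change of 1.91. Of those that rose, 3 stood at the floor in every E15.5 library and entered through P5 alone, so the filter fixed their direction. Over the fits without 1 cKO library, 6 to 7 of the 11 rose. Rdh5, which encodes an 11-cis-retinol dehydrogenase, was 173, 127 and 172 at E15.5 and 2418, 4853 and 5899 at P5 (log2 change 4.71 ± 0.38, adjusted p = 1.3e-05). Rdh10, the gene of another retinol dehydrogenase, was 648, 586 and 551 at E15.5 and 5019.5, 5256 and 8171 at P5 (3.33 ± 0.32, adjusted p = 4e-05). In both genes every P5 library lay far above every E15.5 library. Rrh, the gene of the opsin peropsin, stood at the floor of 50 in all 3 E15.5 libraries and at 697, 1027 and 1285 at P5, at least 20.1-fold higher by group means. Rlbp1, which encodes the retinaldehyde carrier CRALBP, was 955, 699.8 and 906 at E15.5 and 2883, 3451 and 4664 at P5 (2.09 ± 0.20, adjusted p = 3.9e-05). Lrat, the gene of the acyltransferase that makes retinyl esters, rose from the floor to 94.2, 225 and 328 (adjusted p = 0.02), but its adjusted p was 0.084 without P5 cKO replicate 3. Rbp4, the plasma retinol carrier, was 67.5, 50 and 54.8 at E15.5 and 131, 71.3 and 136 at P5, near the floor throughout (0.92 ± 0.28, adjusted p = 0.024). That call too was lost on leaving out single libraries, with an adjusted p of 0.093 without P5 cKO replicate 3. Stra6, the retinol uptake receptor, was 2916, 2408 and 3397 at E15.5 and 4284.5, 4442 and 6348.5 at P5 and did not pass (log2 change 0.78 ± 0.38, adjusted p = 0.12). Ttr, which encodes the thyroxine and retinol carrier transthyretin, had the largest rise of all members. It was 109.9, 89.1 and 85.3 at E15.5 and 37268, 68217 and 77449 at P5, a 644-fold difference of means (log2 change 9.26 ± 0.29, adjusted p = 4.1e-08). Rgr, the gene of the RPE opsin that helps regenerate chromophore in light, stood at the floor in all 3 E15.5 libraries and at 93.2, 199 and 203.5 at P5 (log2 change 1.62 ± 0.32, adjusted p = 0.0022). Rpe65, the isomerase gene of the cycle, was at the floor of 50 in all 6 libraries labelled cKO and is no member.

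**Figure D2:**
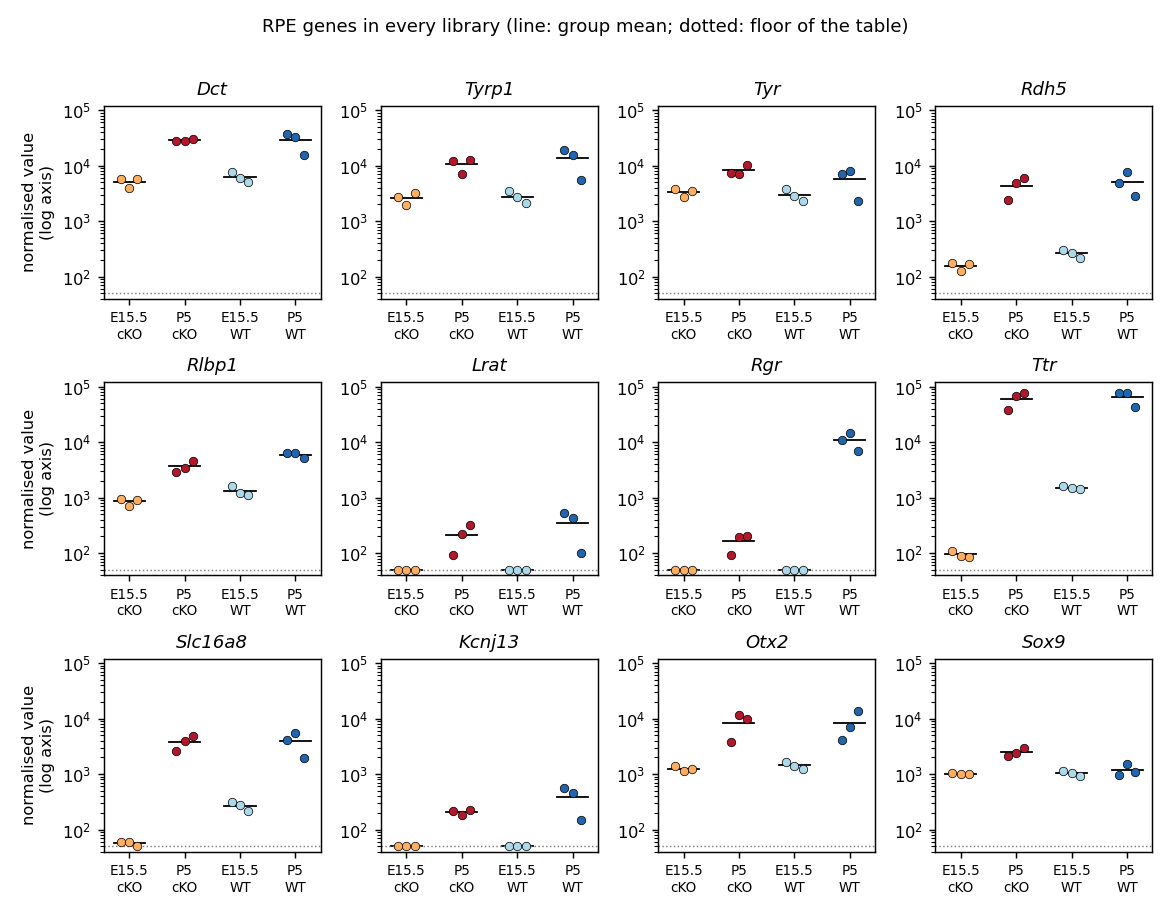
Values of 12 genes in all 12 libraries on a log axis, 1 point per library, with a line at each group's mean and a dotted line at the floor of 50. Rdh5 rises 27.9-fold, Slc16a8 67-fold and Ttr 644-fold by group means in the libraries labelled cKO, and Rgr ends at 93.2 to 203.5 in P5 cKO against 6784 to 14597 in P5 WT.

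Of 15 members that handle retinoic acid, 3 rose (20%) and 6 fell (40%), against 18.3% and 27.1% over all members. Of the rises, 1 entered through P5 alone. Cyp26a1, which encodes a retinoic acid hydroxylase, rose from 67.5, 159 and 134 to 855, 449.7 and 463 (log2 change 2.31 ± 0.33, adjusted p = 0.00036). Aldh1a3, which encodes a retinaldehyde dehydrogenase that makes retinoic acid, fell from 712, 619 and 687 to 262, 128 and 120.3 (-2.07 ± 0.45, adjusted p = 0.004). Both intracellular retinoic acid carriers fell, Crabp1 with a log2 change of -2.37 and Crabp2 of -2.13. Aldh1a2, another synthesising enzyme, was 1286, 1456 and 1233 at E15.5 and 2786, 1349.8 and 1651 at P5 and did not pass the test (adjusted p = 0.18). Calls for Aldh1a1 and Bco1, which rose, and for Rarb, Rxrg and Rarg, which fell, were lost in at least 1 fit without a single library, with adjusted p reaching 0.071 without P5 cKO replicate 3 for Aldh1a1, 0.11 without P5 cKO replicate 1 for Bco1, 0.06 without P5 cKO replicate 2 for Rarb, 0.087 without P5 cKO replicate 3 for Rxrg and 0.16 without P5 cKO replicate 2 for Rarg. This list held 1 to 2 rises and 3 to 7 falls over the fits without 1 cKO library, the fewest rises without E15.5 cKO replicate 2 or P5 cKO replicate 3 and the fewest falls without E15.5 cKO replicate 3.

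Of 14 members of the RPE transcription factor list, 6 rose (42.9%) and 2 fell (14.3%), against 18.3% and 27.1% over all members. The mean log2 value over the list ran 9.35, 8.88 and 9.33 at E15.5 and 9.33, 9.98 and 10.06 at P5. P5 replicate 1 thus lay inside the E15.5 range for the list as a whole. The part of neural retina in the rises of this list was not tested. Otx2, a homeodomain factor required for RPE and photoreceptor fate, was 1383, 1153 and 1237 at E15.5 and 3829, 11579 and 9981 at P5 (log2 change 2.60 ± 0.45, adjusted p = 0.0011). P5 replicates 2 and 3 stood at over 2 times P5 replicate 1, and these are also the libraries of higher photoreceptor level. P5 replicate 1, where photoreceptor genes were low, still lay above all 3 E15.5 libraries. Six3, Nr2e1 and Lhx2, factors shared with neural retina, rose by 1.64, 1.66 and 1.28. Six3 was 984, 938 and 925 at E15.5 and 2028, 3813 and 3381 at P5. Lhx2 was 1067.5, 843 and 943 at E15.5 and 1430.3, 2824 and 3033 at P5, both with P5 replicate 1 the lowest of its age. Pax2 rose by 1.38 with an adjusted p of 0.11 without P5 cKO replicate 3. Otx1, a paralogue of Otx2, went the opposite way, from 1431, 792 and 1359 to 163, 346 and 456 (log2 change -1.96 ± 0.60, adjusted p = 0.023), and its adjusted p was 0.074 without P5 cKO replicate 1, which left Foxp2 as the called fall of the list. Foxp2 fell from 997, 884.5 and 1033 to 576, 430.3 and 337 (-1.15 ± 0.23, adjusted p = 0.0029). Pax6, the eye-field factor that is lowered in maturing RPE, was 2862.5, 1861 and 2775 at E15.5 and 335, 2131 and 1486 at P5 and did not pass (adjusted p = 0.19). Its P5 replicate 1 lay far under the E15.5 range, replicate 3 under it and replicate 2 inside it.

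The transport list had the highest share of risen members among the 7 RPE lists. Of 25 members, 21 rose, 3 of them through P5 alone, and 1 fell, with a median log2 change of 1.53. Over the fits without 1 cKO library, 17 to 19 of the 25 rose. Slc16a8, which encodes the basolateral lactate transporter MCT3, went from 60.4, 59.8 and 50 to 2561, 3965 and 4874 (log2 change 6.00 ± 0.35, adjusted p = 2.7e-06). Slco1a4, an organic anion transporter gene, rose from the floor in all 3 E15.5 libraries to 1084, 1276 and 1698, at least 27.1-fold. Car12, a carbonic anhydrase gene, was 383, 365 and 319.5 at E15.5 and 2416, 3053 and 3906 at P5. Car14, another, was 1132, 817 and 899 at E15.5 and 3865.5, 3900 and 6393 at P5. Both rose, by 3.11 and 2.28 on the log2 scale, with no overlap between ages. Abca4, the retinoid flippase gene, was 522, 433 and 399.5 at E15.5 and 2149, 3526 and 3669.6 at P5 (2.75 ± 0.27, adjusted p = 4.3e-05). Atp1b1, which encodes a subunit of the apical sodium pump, was 932, 711 and 666 at E15.5 and 3819, 4744 and 7324 at P5 (2.74 ± 0.30, adjusted p = 8.4e-05). Ezr and Slc9a3r1, which encode the microvillar linker ezrin and its partner NHERF1, rose by 2.15 and 2.43. Trpm3 rose by 1.88. Kcnj13, the gene of the apical potassium channel Kir7.1, stood at the floor at E15.5 and at 215, 186 and 229.7 at P5, at least 4.21-fold higher. The transport member that fell was Slc16a3, the gene of the lactate transporter MCT4, named after its values were seen (log2 change -0.94, limma adjusted p = 0.0069).

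Genes of outer segment uptake moved less. Of 16 members, 4 rose (25%) and 1 fell (6.25%), against 18.3% and 27.1% over all members, with a median log2 change of 0.29. Gas6, a ligand of the TAM receptor kinases, was 943, 1022 and 806 at E15.5 and 3504, 3203 and 3781 at P5 (log2 change 1.92 ± 0.29, adjusted p = 0.00051), and Tyro3, one of its receptors, 679, 594 and 692 at E15.5 and 1537, 1630 and 1943 at P5 (1.37 ± 0.32, adjusted p = 0.0059). Mertk, the receptor kinase needed for outer segment engulfment, was 273, 286 and 304 at E15.5 and 479.9, 397.5 and 387 at P5. Its 3 P5 libraries lay above the 3 E15.5 libraries, but the change did not pass (log2 change 0.54 ± 0.25, adjusted p = 0.096). Pros1, the other TAM ligand, gave 0.44 ± 0.39, adjusted p = 0.39, and the integrin gene Itgav 0.34 ± 0.28, adjusted p = 0.34. Cd81 and Map1lc3b rose by 0.72 and 0.48. Dnm1, a dynamin gene, fell (log2 change -0.61), but its adjusted p was 0.061 without P5 cKO replicate 3, so that the list then held no called fall.

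Of 25 junction and polarity members, 11 rose (44%) and 6 fell (24%), against 18.3% and 27.1% over all members. Of the falls, 1 entered through E15.5 alone. Among claudins, the sealing proteins of tight junctions, Cldn2 was 97.5, 89.7 and 105 at E15.5 and 1019, 922 and 1483 at P5. Cldn1 was 316, 316 and 319.9 at E15.5 and 2579.6, 2529.6 and 4349 at P5. Both rose without overlap, by 3.51 ± 0.45 and 3.26 ± 0.43. Cldn3 fell from 262.5, 189.8 and 185 to 50, 51.2 and 67.5 (-1.89 ± 0.18, adjusted p = 3.7e-05). Ocln, which encodes occludin, rose from 60.8, 76.3 and 74.3 to 226, 211 and 313.5 (1.80 ± 0.36, adjusted p = 0.0026). Cdh1, the gene of E-cadherin, fell from 879.9, 994 and 827 to 356, 112.5 and 264 (-2.03 ± 0.51, adjusted p = 0.0092), and genes of surface ectoderm, an epithelium that also expresses E-cadherin, fell over the same interval. Their part in the Cdh1 fall was not tested. Krt8, which with Krt18 encodes the simple epithelial keratin pair of RPE, was 1119.6, 739 and 745 at E15.5 and 2908, 4259 and 5649.7 at P5. Krt18 was 2709, 1819 and 2071 at E15.5 and 6337, 12654 and 13135 at P5. Both rose, by 2.27 and 2.23, and in both P5 replicate 1 was the lowest of its age. Crb2 and Llgl2, polarity genes, rose by 1.21 and 1.81. Crb3 rose by 1.08 with an adjusted p of 0.15 without P5 cKO replicate 3.

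Of 20 members of the list of angiogenic and angiostatic secreted factors, 12 rose and 2 fell. Cst3, the gene of the protease inhibitor cystatin C, a secreted product of RPE, was 2136.5, 2153 and 1966 at E15.5 and 16934, 24971 and 33277 at P5 (log2 change 3.53 ± 0.22, adjusted p = 3.3e-06). Thbs1, an inhibitor of vessel growth, was 2025, 1889 and 2034 at E15.5 and 9692, 7651 and 10929 at P5 (2.23 ± 0.38, adjusted p = 0.0011). Sema3a, which encodes a repulsive guidance cue, fell from 1093, 1053 and 1116.5 to 392.5, 144 and 145 (-2.42 ± 0.36, adjusted p = 0.00047), and Adamts1, the gene of an angiostatic protease, fell too (log2 change -1.67). The rises numbered 7 to 14 over the fits without 1 cKO library, lowest without E15.5 cKO replicate 2 or P5 cKO replicate 3 and highest without P5 cKO replicate 2.

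Of 30 basement membrane members, 6 rose (20%) and 5 fell (16.7%), shares near or under the 18.3% and 27.1% over all members. Col4a3, which with Col4a4 encodes collagen IV chains of mature basement membranes, was 559, 388 and 302.5 at E15.5 and 4203, 4994 and 6722 at P5. Col4a4 was 783, 658 and 595 at E15.5 and 2959.9, 3067 and 4106 at P5. They rose by 3.69 ± 0.43 and 2.31 ± 0.36 on the log2 scale. The elastic fibre gene Mfap5 rose by 2.17, and Fbn2, the gene of a fetal fibrillin, fell from 11458, 12390.1 and 17979 to 5248, 1906 and 2149 (-2.30 ± 0.40, adjusted p = 0.0011). The other falls were Lama1, Agrn, Fbln1 and Emilin1 (log2 changes -1.03, -0.46, -1.38 and -1.05), with adjusted p of 0.073 without E15.5 cKO replicate 3 for Agrn and 0.12 without P5 cKO replicate 3 for Emilin1. Falls in this list numbered 3 to 8 over the fits without 1 cKO library, most without P5 cKO replicate 1 and fewest without E15.5 cKO replicate 3 or P5 cKO replicate 3. Of 20 fibrillar collagen and collagen-enzyme members, 2 rose, Fmod and Bgn, which encode small proteoglycans of fibrillar matrix, by 3.54 and 1.71. Another 5 fell (25%, near the share over all members), Col5a1 with a log2 change of -1.61, and P4ha2, Plod2 and Serpinh1, of collagen hydroxylation and folding, with -1.16, -0.998 and -0.96. Without P5 cKO replicate 1, the library of higher mesenchymal level, 10 of these genes fell. Lum was the fifth fall (log2 change -1.22), with an adjusted p of 0.15 without P5 cKO replicate 2. Col1a1, the gene of the main collagen I chain, held the highest value of the table in 4 of the 6 libraries labelled cKO, which is a ceiling under quantile normalisation. Col1a2 was 114320.3, 83611 and 130121 at E15.5 and 208482, 77449 and 95933 at P5. Neither passed the test (adjusted p = 0.44 and 0.88).

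**Figure D3:**
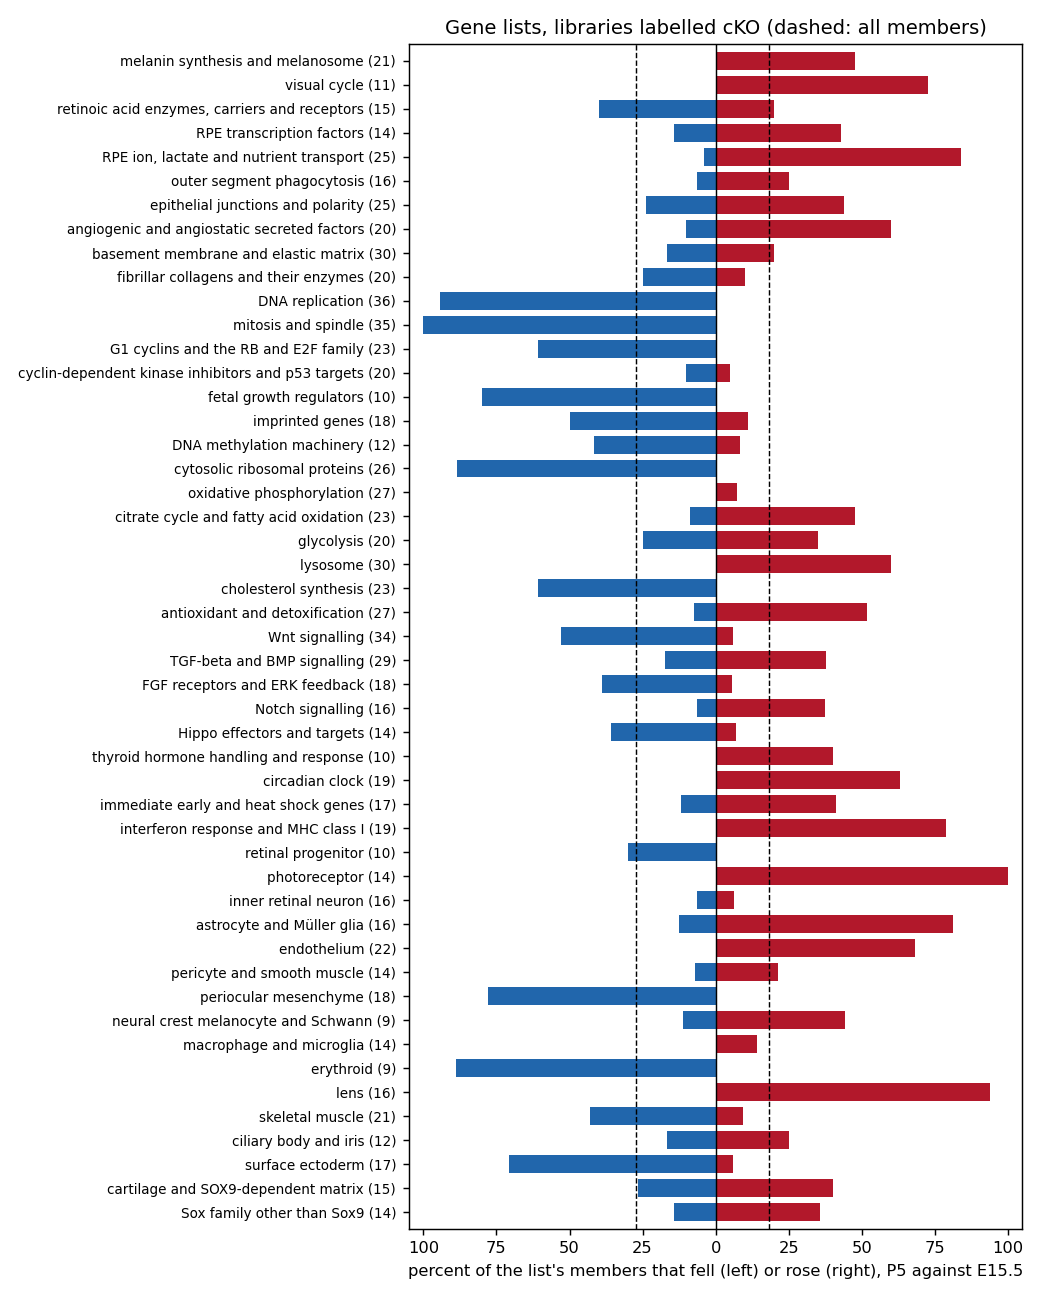
For each of 49 gene lists, the percentage of its members that rose (red, right) and fell (blue, left) between E15.5 and P5 in the libraries labelled cKO, with the number of members in brackets. Dashed lines mark the shares over all members, 18.3% risen and 27.1% fallen. Replication, mitosis and ribosomal protein lists lie almost wholly to the left, and transport, visual cycle, photoreceptor and lens lists to the right.

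Replication and mitosis genes fell almost without exception. Of 36 DNA replication members 34 fell and none rose, with a median log2 change of -1.37, and of 35 mitosis and spindle members all 35 fell, with a median of -1.43. Top2a, the gene of the topoisomerase that untangles replicated chromosomes, was 3158, 3123 and 3001 at E15.5 and 1204, 675 and 807 at P5 (log2 change -1.83 ± 0.20, adjusted p = 7.3e-05). Cdc6, the helicase loader gene, fell from 237, 279 and 277 to 67.5, 50 and 62.4 (-2.13 ± 0.20, adjusted p = 3.5e-05). Uhrf1, whose product brings DNMT1 to replicated DNA, went from 1252, 1483 and 1346 to 444, 248 and 331 (-2.03 ± 0.28, adjusted p = 0.00032). In Bub1, Cenpe and Ttk, genes of the spindle checkpoint and kinetochore, the log2 changes were -2.04, -1.86 and -1.90. Division RNA had not vanished by P5: Top2a stood at 1204, 675 and 807, highest in replicate 1. Mesenchymal and surface ectoderm genes fell over the same interval, and the part of those tissues in the fall of division genes was not tested. With P5 replicates 2 and 3 left out, 19 of the 35 mitosis members passed as falls. Of 23 G1 cyclin, RB and E2F members, 14 fell and none rose. Myc fell from 715, 854.5 and 670 to 351, 118 and 121 (-2.11 ± 0.35, adjusted p = 0.00094). E2f7, E2f2 and the cyclin E2 gene Ccne2 fell too (log2 changes -2.07, -1.90 and -1.72).

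Promoters of these genes shared letters that the choice of the lists did not use. The E2F letters TTTCCCGC, TTTGGCGC, TTTCGCGC or TTTGCCGC stood on either strand in 13 of 32 promoters found for the replication list (40.6%), in 1 of 31 of the mitosis list (3.23%) and in 2.26% of all promoters of the table. The CHR letters TTTGAA, an element of late cell cycle promoters, stood in 23 of 31 promoters of the mitosis list (74.2%), in 9.38% of those of the replication list and in 17.9% of all. Over promoters of all members the shares were 3.83% for the E2F letters and 11.7% for the CHR letters. E2F and CHR letters overlapped each other at 0 positions. Promoters were found for 28 of the 36 replication members and 29 of the 35 mitosis members. No test was made, and a match of letters is not a measured site. The windows shown are 50 bases within the 250 before the start, 5′ to 3′ on the gene's strand, with E2F letters or their reverse complement in capitals for 3 replication genes and CHR letters or their reverse complement for 3 mitosis genes (RefSeq, GRCm38.p6). All 6 genes fell, with log2 changes of -1.71 for Mcm5, -1.69 for Mcm6, -2.13 for Cdc6, -1.31 for Mki67, -1.83 for Top2a and -1.43 for Cdc20. Mcm5 holds 2 overlapping E2F matches and Mki67 holds 2 CHR matches. They lie at chr8:75109339-75109388, plus strand (Mcm5), chr1:128359724-128359773, minus strand (Mcm6), chr11:98907992-98908041, plus strand (Cdc6, in an intron of a longer Cdc6 transcript), chr7:135716450-135716499, minus strand (Mki67), chr11:99024190-99024239, minus strand (Top2a) and chr4:118437353-118437402, minus strand (Cdc20), the others outside annotated genes.
Mcm5: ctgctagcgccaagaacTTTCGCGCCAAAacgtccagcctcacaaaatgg
Mcm6: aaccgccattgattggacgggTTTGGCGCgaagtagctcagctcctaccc
Cdc6: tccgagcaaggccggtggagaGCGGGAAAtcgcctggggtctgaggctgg
Mki67: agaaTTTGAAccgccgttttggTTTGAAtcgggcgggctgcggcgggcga
Top2a: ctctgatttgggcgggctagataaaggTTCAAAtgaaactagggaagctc
Cdc20: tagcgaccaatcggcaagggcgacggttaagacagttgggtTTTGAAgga

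The list that joins cyclin-dependent kinase inhibitor genes and p53 targets did not rise as a group. Of its 20 members, 1 rose (5%) and 2 fell (10%), against 18.3% and 27.1% over all members. Cdkn1c, the imprinted gene of the inhibitor p57, fell from 19112, 19463 and 16934 to 6683, 5984 and 4279.8 (log2 change -1.73 ± 0.16, adjusted p = 3.5e-05). Ccng2, a cyclin G gene, was the other fall (log2 change -1.01). Sesn2, a stress-response gene, was 217, 207.5 and 245 at E15.5 and 291, 389 and 320.4 at P5 and rose by 0.57 ± 0.15.

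Most fetal growth genes fell. Of 10 members, 8 fell, 2 of them through E15.5 alone, and none rose. Hmga2, which encodes a chromatin protein of fetal and stem cells, was 908, 1577 and 1241 at E15.5 and at the floor in all 3 P5 libraries, at least 24.8-fold lower. The RNA-binding protein genes Igf2bp3, Igf2bp2 and Igf2bp1 fell (log2 changes -3.36, -2.56 and -1.88). Igf2bp2, as an example, was 2159.9, 2248 and 2237 at E15.5 and 513, 294 and 352 at P5. Of 18 imprinted members, 9 fell, 1 of them through E15.5 alone, and 2 rose. Peg10 was 4465, 5318 and 3605 at E15.5 and 726, 645 and 674.5 at P5 (-2.69 ± 0.19, adjusted p = 6.7e-06). Dlk1, a Notch-like ligand gene, was 17979, 20743 and 18242.5 at E15.5 and 8052, 3732.5 and 2399.5 at P5 (-2.19 ± 0.43, adjusted p = 0.0022), highest at P5 in replicate 1. Nap1l5 rose from 50.7, 80.2 and 50 to 596, 1603 and 1287.5 (4.16 ± 0.33, adjusted p = 1.2e-05), against the direction of the list, and Snrpn rose too (log2 change 1.07, adjusted p = 0.15 without P5 cKO replicate 2). Of 12 DNA methylation members 5 fell and 1 rose. Dnmt1, the maintenance methyltransferase gene, was 2506, 2688 and 2533 at E15.5 and 1081, 1048 and 1089 at P5 (log2 change -1.26 ± 0.11, adjusted p = 2.6e-05). Dnmt3a and Uhrf2 fell too (log2 changes -0.68 and -0.95). Tdg, a demethylation enzyme gene, fell (log2 change -0.77), with an adjusted p of 0.064 without E15.5 cKO replicate 2, and Dnmt3b was the remaining fall (-0.57, adjusted p = 0.063 without P5 cKO replicate 2). The rise was Mbd2 (0.49), the gene of a methyl-CpG binding protein, and it was lost in each of the 6 fits without 1 cKO library. Of 26 ribosomal protein members 23 fell and none rose, with a median of -0.68. Rpl4 was 20743, 24109.8 and 22676 at E15.5 and 12155, 11847.5 and 12254 at P5, a close spacing within each age (-0.89 ± 0.13, adjusted p = 0.00046), and Rpl5 and Rps4x fell (log2 changes -1.03 and -0.93).

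Mitochondrial respiration genes mostly did not pass. Of 27 nuclear and mitochondrial members of oxidative phosphorylation, 2 rose, Ndufa1 and Cox6a1, and none fell. Ndufa1, a complex I subunit gene, was 709, 555 and 547.5 at E15.5 and 836, 1294 and 1255 at P5 (log2 change 0.88 ± 0.21, adjusted p = 0.0066). Cox6a1, a subunit gene of cytochrome oxidase, was 2946, 2529.6 and 2536 at E15.5 and 3277, 4727 and 4733 at P5. Its call had an adjusted p of 0.051 without P5 cKO replicate 3. Without P5 cKO replicate 1, 7 members rose. Mitochondrially encoded mt-Co1, mt-Cytb and mt-Nd1, among the highest values of the table, changed by 0.39, 0.18 and 0.26 and did not pass. In each of these 3, P5 replicate 1 was lower than replicates 2 and 3.

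Of 23 members of the citrate cycle and fatty acid oxidation list, 11 rose and 2 fell. Cpt1a, the gene of the carnitine transferase that lets fatty acids into mitochondria, was 926, 900.5 and 888 at E15.5 and 3203, 2787 and 3437 at P5 (log2 change 1.79 ± 0.13, adjusted p = 8.2e-06). Acadl, of mitochondrial oxidation, rose by 1.09. The falls were the citrate cycle genes Idh2 and Dlst (log2 changes -0.75 and -0.34), with adjusted p of 0.053 without P5 cKO replicate 2 for Idh2 and 0.056 without P5 cKO replicate 3 for Dlst. RPE is known to oxidise the fatty acids of ingested outer segments. Of 20 glycolysis members 7 rose (35%) and 5 fell (25%, near the share over all members). Aldoc was 244, 145.5 and 140.3 at E15.5 and 925, 1413 and 1844 at P5 (2.96 ± 0.30, adjusted p = 4.6e-05), and Pfkp and Eno2 rose by 2.19 and 1.77. The glucose transporter gene Slc2a3 fell from 547, 349 and 548.5 to 67.4, 135 and 94.4 (-2.30 ± 0.35, adjusted p = 0.00053), and Hk2, the gene of a hexokinase of growing tissue, had a log2 change of -1.52. Pfkfb3, Pdk1 and Tpi1 were the other falls (-0.76, -0.47 and -0.28). Their adjusted p was 0.091 without P5 cKO replicate 3 for Pfkfb3, 0.14 without P5 cKO replicate 2 for Pdk1 and 0.095 without E15.5 cKO replicate 2 for Tpi1. Falls of glycolysis genes numbered 2 to 4 over the fits without 1 cKO library, fewest without E15.5 cKO replicate 1 or 3 or P5 cKO replicate 2 or 3.

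Most lysosome genes rose and most cholesterol synthesis genes fell. Of 30 lysosome members 18 rose and none fell, with a median of 0.66. Their rises numbered 15 to 20 over the fits without 1 cKO library. Ctsd, the gene of cathepsin D, the main protease that degrades ingested outer segments in RPE phagosomes, was 8674, 7053 and 7587 at E15.5 and 24971, 22676 and 28794 at P5 (log2 change 1.71 ± 0.25, adjusted p = 0.0004). Tfeb, which encodes the regulator of lysosomal genes, was 170.4, 185 and 189 at E15.5 and 737, 752 and 759 at P5, tightly grouped at each age (2.04 ± 0.26, adjusted p = 0.0002). The proton pump gene Atp6v0a1 rose by 1.40 and the mannosidase gene Manba by 1.43. Macrophages are also rich in lysosomes, and the mean log2 value over 18 macrophage and microglia genes ran 7.19, 7.26 and 7.38 at E15.5 and 8.32, 7.32 and 7.51 at P5. Their part was not tested. Of 23 cholesterol synthesis members 14 fell and none rose, with a median of -0.76. Their falls numbered 10 to 15 over the fits without 1 cKO library. Acat2, which makes acetoacetyl-CoA in the cytosol, was 572, 575 and 555 at E15.5 and 214, 182 and 159.8 at P5 (-1.62 ± 0.15, adjusted p = 3e-05), and Idi1 and Cyp51 fell (log2 changes -1.23 and -1.16). Of 27 antioxidant members 14 rose, 1 of them through P5 alone, and 2 fell. The metallothionein gene Mt1 was 339, 252 and 256 at E15.5 and 2485, 6722 and 4915.5 at P5 (3.95 ± 0.38, adjusted p = 3.9e-05). Sod3, Cp and Trf, which encode extracellular superoxide dismutase, the ferroxidase ceruloplasmin and transferrin, rose by 3.66, 3.48 and 3.41. The falls were Txnrd1 and Prdx3, of thioredoxin-dependent reduction (log2 changes -0.61 and -0.38), Prdx3 with an adjusted p of 0.086 without E15.5 cKO replicate 1. Trf stood at the floor in all 3 E15.5 libraries and at 345, 803 and 575 at P5.

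Among Wnt genes, 18 of 34 members fell, 16 of them when the 3 members that entered through E15.5 alone are set aside, and 2 rose. Wnt6, a ligand gene, went from 953, 675 and 950.5 to 64, 50 and 50 (-3.94 ± 0.21, adjusted p = 1.5e-06). Wnt4, another, went from 1332, 882 and 1045 to 98.5, 95.8 and 100 (-3.44 ± 0.25, adjusted p = 7.1e-06). Dkk2, the gene of a secreted Wnt antagonist, fell (log2 change -1.94). The receptor gene Fzd5, expressed in RPE, rose from 179, 262.5 and 207 to 707, 863 and 928 (1.95 ± 0.31, adjusted p = 0.00073), and Dkk3 was the other rise (0.88). Of 29 TGF-beta and BMP members 11 rose and 5 fell. The ligand gene Bmp6 was 131, 237 and 190.3 at E15.5 and 1977, 1533 and 2646.5 at P5 (3.46 ± 0.38, adjusted p = 7.9e-05), and the BMP target genes Id1 and Id2 rose by 2.48 and 1.997. Grem1, a BMP antagonist gene, fell from 351, 259 and 444 to 50, 50 and 75 (-2.56 ± 0.31, adjusted p = 0.00015). The other falls were the antagonist gene Fst, the receptor genes Tgfbr1 and Bmpr1b, and Smad1 (log2 changes -1.51, -0.87, -1.08 and -0.44). At P5 Id1 was 2205, 6247 and 6315, lowest in replicate 1.

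Of 18 FGF members 7 fell, 1 of them through E15.5 alone, and 1 rose. Fgfr4, a receptor gene, Fgf15, a ligand gene, and Etv1, a target gene, fell (log2 changes -3.15, -2.46 and -1.54), and the receptor gene Fgfr3 rose from 277, 283 and 268 to 876, 1065 and 1261.5. The falls numbered 3 to 7 over the fits without 1 cKO library, fewest without E15.5 cKO replicate 2 or P5 cKO replicate 2 or 3. Of 16 Notch members 6 rose and 1 fell. Heyl, Hey1 and Hes1, target genes of the pathway, rose by 1.35, 1.18 and 0.98, and the ligand gene Dll4, a marker of endothelial tip cells, by 1.12. The fall was Jag2, another ligand gene (log2 change -0.67). Of 14 Hippo members 5 fell and 1 rose. Tead2, Tead3 and Tead4, genes of the DNA-binding partners of YAP, fell (log2 changes -1.58, -1.22 and -1.31), as did Tead1 and Ajuba (-0.57 and -1.03). The YAP target gene Ctgf rose from 336.5, 368 and 381 to 3142, 1324 and 2227 (2.54 ± 0.45, adjusted p = 0.0013), highest in P5 replicate 1.

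Most clock genes rose. Of 19 circadian members 12 rose and none fell, with a median of 1.58. Nr1d1, which encodes the repressor REV-ERB alpha, was 66.3, 70.6 and 78.1 at E15.5 and 987.5, 1777 and 1756 at P5 (log2 change 4.33 ± 0.23, adjusted p = 1.5e-06). Rora and Dbp rose by 2.54 and 2.51. Ciart, a clock repressor gene, was 50, 50 and 50.1 at E15.5 and 50.3, 432 and 381 at P5, low in P5 replicate 1 and high in the other 2, with an adjusted p of 0.11 without P5 cKO replicate 3. The mean log2 value of the clock list at P5, 8.90, 9.39 and 9.36, was also lowest in replicate 1, the library of low photoreceptor level. With P5 replicates 2 and 3 left out, the median of the clock members was 0.97. In a fit with the level of the photoreceptor list as a term, 14 rose and the median stayed 1.58. That level was centred within each group, so the term could alter the estimate of the spread but not the change with age. The part of photoreceptor content in the clock rise was not tested. Of 10 thyroid hormone members 4 rose, 1 of them through P5 alone, 6 were not called and none fell, with a median of 0.35. The rises numbered 3 to 5 over the fits without 1 cKO library. Klf9, a hormone-induced transcription factor gene, was 86.2, 83 and 88.3 at E15.5 and 412, 748 and 534 at P5 (2.66 ± 0.29, adjusted p = 7.8e-05), and the thyroxine transporter gene Slco1c1 rose from the floor to 140.1, 188.5 and 209, at least 3.58-fold. Thra, a receptor gene, rose by 0.61, with an adjusted p of 0.058 without P5 cKO replicate 2.

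Interferon and MHC class I genes rose in 15 of 19 members and fell in none. Of the members, 5 stood at the floor in every E15.5 library and above it in every P5 library, so the filter fixed their direction. Another 12 of the rises were among the other members. Over the fits without 1 cKO library, 12 to 14 of the 19 rose. H2-K1 was 139, 107 and 132 at E15.5 and 996, 1066 and 1432 at P5 (log2 change 3.19 ± 0.29, adjusted p = 2.8e-05), H2-D1 rose by 2.85, Ifitm3 by 2.01 and Bst2 by 1.98. Reads of H2-K1 and H2-D1, closely similar class I genes, can be shared, so their split is uncertain. Of 17 immediate early and heat shock members 7 rose and 2 fell. Junb, Egr1 and Dusp1 rose by 1.79, 1.66 and 1.57. The falls were Jun and Hsph1 (log2 changes -0.48 and -0.83), Hsph1 with an adjusted p of 0.08 without E15.5 cKO replicate 3. Fos rose by 1.62, with an adjusted p of 0.063 without E15.5 cKO replicate 3. The rises of this list numbered 4 to 6 over the fits without 1 cKO library, fewest without E15.5 cKO replicate 3.

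Photoreceptor genes gave several of the largest rises. All 14 members of the list rose, but 11 of them stood at the floor in every E15.5 library and entered through P5 alone, so the filter fixed that direction. A further 9 photoreceptor genes were above the floor only in P5 replicates 2 and 3 and are no members. Sag, the rod arrestin gene, was at the floor at E15.5 and 378, 7935 and 3419 at P5. Rbp3, the interphotoreceptor retinoid-binding protein gene, was 50, 50 and 53.2 at E15.5 and 718, 10983.5 and 4994 at P5. In both genes replicate 2 was highest and replicate 1 lowest. Crx, a photoreceptor homeodomain factor gene, was at 382, 5169 and 2501 at P5, Nr2e3, of rod fate, at 388.5, 5637 and 2617, and Pdc, the phosducin gene, at 272, 5156.5 and 2329. With P5 replicates 2 and 3 left out, 0 of the 14 members passed. Inner retinal neuron genes did not move as a group, with 1 risen (Slc6a9) and 1 fallen (Tfap2b) of 16 members. The synaptic gene Syt1 was 194, 159 and 87.1 at E15.5 and 161, 2359 and 1397 at P5, in the same order of P5 libraries as photoreceptor genes, and did not pass (adjusted p = 0.097). Snap25 did not pass either (adjusted p = 0.10). Without P5 cKO replicate 1, 5 inner retinal genes rose. The Tfap2b fall had an adjusted p of 0.11 without P5 cKO replicate 1. Of 10 retinal progenitor members 3 fell (30%, near the share over all members), 1 of them through E15.5 alone. None of the members rose and 7 were not called, with a median of 0.05 and a range from -2.46 to 2.72. Without P5 cKO replicate 1, 2 of them rose. Fgf15 and Ccnd1 fell, from 324, 236 and 285 to the floor and from 1703, 2422 and 2005.5 to 1302, 799 and 834. Sfrp2 fell (log2 change -0.97), with an adjusted p of 0.13 without P5 cKO replicate 2.

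**Figure D4:**
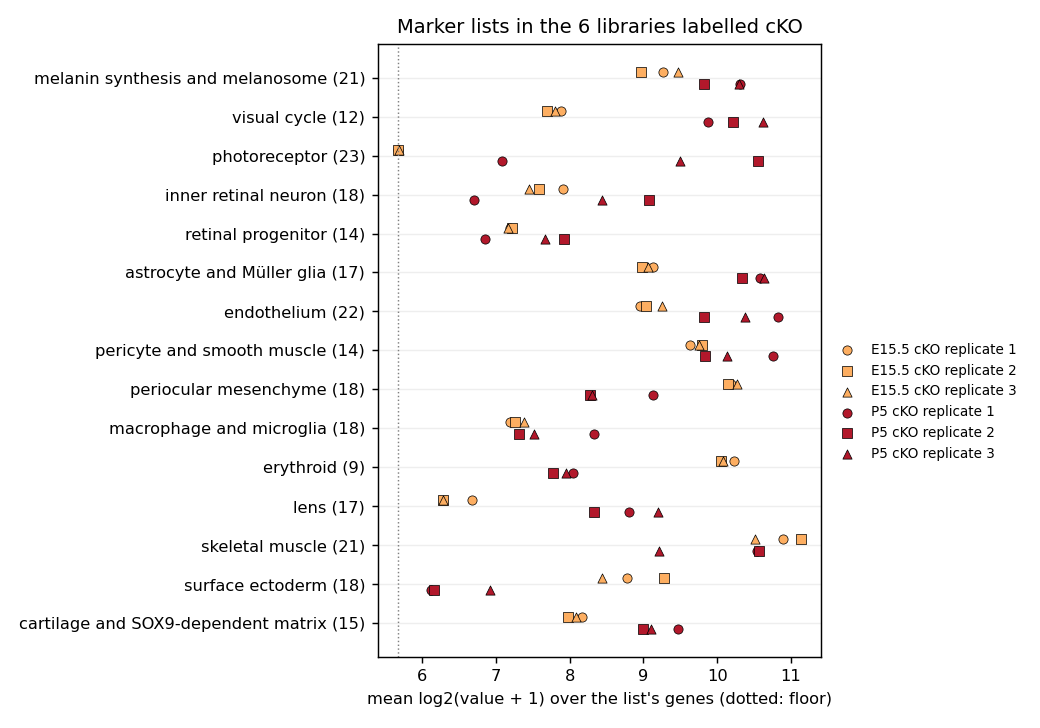
Mean log2(value + 1) over the genes of 15 marker lists in the 6 libraries labelled cKO, with the number of genes in brackets, colours for age, marker shapes for replicate and a dotted line at the floor. Photoreceptor means spread from 7.09 to 10.55 among the P5 libraries, while melanosome means stay within 9.82 to 10.30.

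Most members of the glial and endothelial lists rose. Of 16 astrocyte and Müller glia members 13 rose, 3 of them through P5 alone, and 2 fell. Gfap, the astrocyte filament gene, rose from the floor in all 3 E15.5 libraries to 3703, 2111.5 and 5868, at least 77.9-fold, and S100b from the floor to 561, 547 and 539. Clu, which encodes clusterin, was 3813, 2862.5 and 3768 at E15.5 and 18743, 19112 and 26292 at P5 (log2 change 2.61 ± 0.30, adjusted p = 0.00011). Clu was thus far above the floor at E15.5, where Gfap and S100b stood at it. Car14, given above among the transport genes, is counted in this list too. The part of RPE in the rise of the glial list was not tested. The falls were Pdgfra, of glial progenitors and of mesenchyme, and Vim (log2 changes -1.64 and -0.54), Vim with an adjusted p of 0.075 without E15.5 cKO replicate 1. Of 22 endothelial members 15 rose and none fell, with a median of 1.41. Cldn5, a tight junction gene of vessels, was 340.5, 326 and 348 at E15.5 and 2101.5, 1356 and 1929 at P5 (2.38 ± 0.23, adjusted p = 3.5e-05), Plvap, of fenestrated endothelium such as the choriocapillaris, 1418, 1242 and 1414 at E15.5 and 6393, 4343 and 6763 at P5 (2.08 ± 0.26, adjusted p = 0.00017), and Vwf and Mmrn2 rose by 2.17 and 2.02. In these 4 genes P5 replicate 2 was the lowest of its age. Of 14 pericyte and smooth muscle members 3 rose, 21.4% and near the share over all members (5 without P5 cKO replicate 2), Rgs5 from 612, 637 and 526 to 10055, 5530.2 and 6520.1 (3.59 ± 0.23, adjusted p = 4e-06), Myh11 by 1.11 and Lmod1 by 1.10, and Anpep fell (log2 change -1.35), with an adjusted p of 0.052 without P5 cKO replicate 2. Sox10, of Schwann cells and melanocytes, rose by 2.22, while Erbb3 fell (log2 change -2.20). Of 14 macrophage members 2 rose, Csf1r and C1qa by 1.22 and 0.96, with adjusted p of 0.055 without P5 cKO replicate 1 and 0.13 without P5 cKO replicate 1, so neither call held without that library.

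Most members of the surface ectoderm, periocular mesenchyme and erythroid lists fell. Of 17 surface ectoderm members 12 fell, 6 of them when the 7 members that entered through E15.5 alone are set aside, and 1 rose, Perp, by 1.10 on the log2 scale, a rise that was lost in 5 of the 6 fits without 1 cKO library. Krt5, a keratin gene of stratified epithelium, was 5848, 5057 and 4106 at E15.5 and 50, 50 and 566 at P5. Krt15, another, was 5591.5, 3804 and 3644 at E15.5 and 50, 50 and 672 at P5. Both ended at the floor in P5 replicates 1 and 2 and above it in replicate 3. Epcam fell from 657, 749 and 504 to the floor, at least 12.7-fold, and the epidermal adhesion and keratin genes Dsp, Col17a1, Col7a1 and Krt19 fell (log2 changes -4.73, -3.94, -3.94 and -3.89). Of 18 periocular mesenchyme members 14 fell and none rose, with a median of -1.52. Osr2 was 3664, 3882 and 3507 at E15.5 and 184, 176 and 207 at P5 (-4.28 ± 0.41, adjusted p = 3.5e-05). Pitx1, a homeobox gene of the same tissue and no entry of that list, was 804, 1095 and 803 and then at the floor. Twist2, Alx1 and Tbx15 fell (log2 changes -3.07, -2.88 and -2.14). Of 21 skeletal muscle members 9 fell, 1 of them through E15.5 alone, 2 rose, 1 of them through P5 alone, and 10 were not called. The median was -0.50, but 0.11 without P5 cKO replicate 3 and -0.08 with array weights. The embryonic troponin and actin genes Tnnt2 and Actc1 and the myogenic factor Myog fell (log2 changes -4.06, -3.50 and -3.36), and the adult fast myosin gene Myh1 rose from the floor to 4266, 2153 and 1618. Tnni2, of fast muscle, rose by 1.498 (adjusted p = 0.13 without E15.5 cKO replicate 3). Of 9 erythroid members 8 fell and none rose, and 4 members entered through E15.5 alone. Hbb-y, an embryonic globin gene, went from 655, 749 and 1038 to the floor in all 3 P5 libraries, Hba-x, another, from 435, 481 and 569.7 to the floor, and the adult Hbb-bt from 4317, 3946 and 3459 to 688, 334 and 571. Globin copies share sequence, so the split of reads between them is uncertain.

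Lens genes rose in 15 of 16 members, 11 of them when the 5 members that entered through P5 alone are set aside. Over the fits without 1 cKO library, 11 to 14 of the 16 rose. Cryba1, a beta-crystallin gene, was 218, 106 and 71 at E15.5 and 1373, 884 and 1686 at P5. Crygb, a gamma-crystallin gene, was 92.7, 50 and 50 at E15.5 and 1242, 502 and 1024 at P5. Crygd was 65.8, 50 and 50 at E15.5 and 969, 357 and 785.5 at P5. Crygc was at the floor at E15.5 and at 699.8, 319.6 and 653 at P5. The gamma-crystallin genes are close copies, and the split of reads between them is uncertain. The lowest P5 library was replicate 2 in all 4 genes. In WT, 2 of the same 16 genes rose, where Cryba1 was 190.2, 72.5 and 68.8 at E15.5 and 342, 970.5 and 50 at P5 and so spread widely at P5. None of the 16 had a called interaction (lowest adjusted p = 1), and 2 had an unadjusted p under 0.05. Of 12 ciliary body and iris members 3 rose (25%), 1 of them through P5 alone, and 2 fell (16.7%). The shares over all members were 18.3% and 27.1%, and the median of the list was -0.03. Ptgds and Wfdc1 rose by 4.50 and 3.27, Ptgds from 810.2, 609 and 616 to 11681, 14597 and 20743.

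Matrix genes that SOX9 is known to drive in cartilage rose in 6 of 15 members (40%), 3 of them through P5 alone. Another 4 fell (26.7%, near the 27.1% over all members). Col9a3, the gene of a collagen IX chain, was 339.9, 306 and 377 at E15.5 and 6348.5, 7825 and 11231.5 at P5 (log2 change 4.59 ± 0.31, adjusted p = 5.5e-06). Col10a1, the collagen of hypertrophic cartilage, and Chad, which encodes chondroadherin, rose from the floor in all 3 E15.5 libraries. Col10a1 reached 2657, 1134 and 2110.3 at P5, at least 39.3-fold higher. Chad reached 974, 701 and 917.5, at least 17.3-fold higher. Col11a2 rose from 308, 249.9 and 187 to 2545, 1639 and 1058 (2.75 ± 0.46, adjusted p = 0.00087). Col9a1 fell from 796, 446 and 762 to 147, 242 and 351 (-1.47 ± 0.39, adjusted p = 0.012). Col2a1, Col9a2 and Hapln1, textbook SOX9 targets of cartilage, were the other falls (log2 changes -0.84, -1.11 and -1.64), Col2a1 with an adjusted p of 0.12 without P5 cKO replicate 3. In other Sox genes, 5 of 14 rose (35.7%) and 2 fell (14.3%), against 18.3% and 27.1% over all members. Sox11, of progenitors, was 2908, 2291 and 1676 at E15.5 and 341, 339 and 246.5 at P5 (-2.87 ± 0.24, adjusted p = 1.7e-05), and the endothelial Sox17 and Sox18 rose by 1.68 and 1.54. Sox7, Sox13 and Sox10 were the other rises and Sox12 the other fall (log2 changes 1.07, 0.86, 2.22 and -0.75), Sox12 with an adjusted p of 0.11 without P5 cKO replicate 1.

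Among the 15 largest rises, those in no list were Slc22a8, an organic anion transporter gene, from the floor to 1771, 3686 and 3374 (at least 58.9-fold), Slc1a1, the glutamate transporter gene EAAT3, from 64, 50 and 50 to 1268, 1768.5 and 2194, and Pi16 from 110, 109 and 72.2 to 3813, 1989 and 3210.3. Among the 15 largest falls were Tmem26, from 821, 718.5 and 1029 to 66, 50 and 50, and Cdca7, the gene of a chromatin factor of dividing cells, from 829, 807 and 794 to 99.8, 50 and 55.2. Both rankings took only genes without overlap between ages, so non-overlap of these 5 was a condition of their choice.

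The last comparison asked whether the change with age in the libraries labelled cKO differed from that in WT, where the 2 changes rest on separate libraries. Of the members that rose in cKO, 1679 rose in WT as well, 696 were not called there and 1 fell. Of those that fell in cKO, 2719 fell in WT and 803 were not called there. Over the same 13000 genes, 15.4% rose and 24.1% fell in WT. A call in 1 genotype alone is no test of a difference. By the interaction itself, 8 of 13523 genes tested passed (0.0592%), 7 with the higher change in cKO and 1 with the lower, and 358 had an unadjusted p under 0.05. Across members the cKO and WT changes had a Pearson r of 0.931 and a Spearman coefficient of 0.921, over genes, which are not independent replicates.

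**Figure D5:**
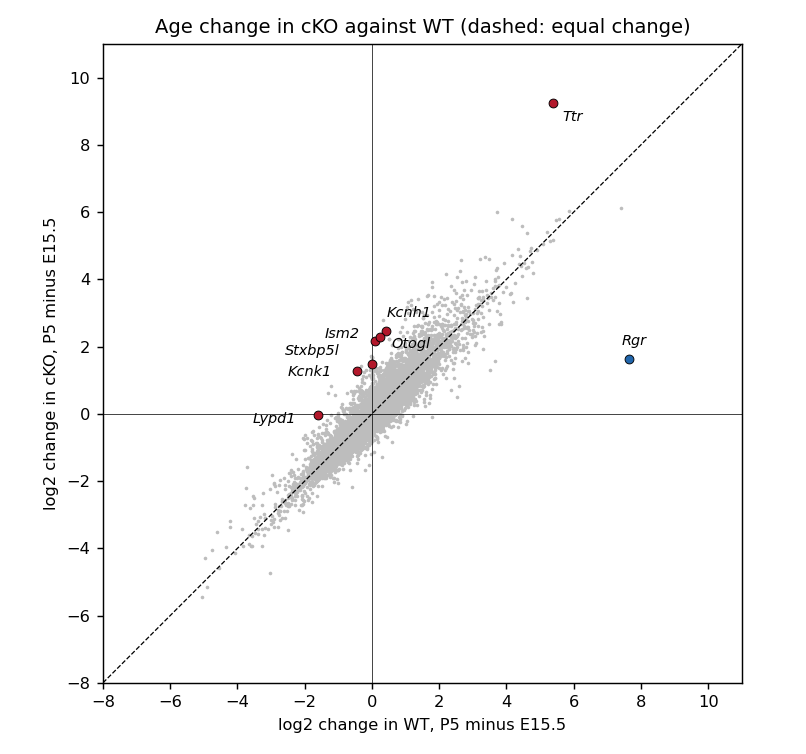
Log2 change from E15.5 to P5 in WT (x axis) against that in the libraries labelled cKO (y axis) for the 13000 members, with the line of equal change dashed. The 7 genes in red had a higher change in cKO and the 1 in blue, Rgr, a lower one.

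Rgr had the largest difference. It was 50, 50 and 50 at E15.5 and 93.2, 199 and 203.5 at P5 in cKO and 50, 50 and 50 at E15.5 and 10706, 14597 and 6784 at P5 in WT (interaction -6.02 ± 0.45, adjusted p = 0.00067). All 6 E15.5 libraries stood at the floor, and the highest P5 cKO library lay far under the lowest P5 WT library. Ttr was 1602, 1473 and 1454 at E15.5 and 77449, 77449 and 42122 at P5 in WT (interaction 3.87 ± 0.41, adjusted p = 0.0054). The E15.5 cKO libraries given above were all lower than the E15.5 WT libraries, while the P5 ranges overlapped. The interactions of Rrh and Slc16a8 did not pass (adjusted p = 0.95 and 0.54). Rpe65, at the floor in all 6 libraries labelled cKO, was at the floor at E15.5 and at 564, 479 and 178 at P5 in WT, and its interaction did not pass (limma adjusted p = 0.12).

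Of the other 6 interaction genes, 5 rose in cKO and were not called in WT, and Lypd1 fell in WT and was not called in cKO. Ism2, which encodes a secreted isthmin, was at the floor at E15.5 and at 188, 237 and 261 at P5 in cKO, and 50, 51.3 and 50 at E15.5 and 58.4, 53.2 and 50 at P5 in WT (interaction 2.07 ± 0.20, adjusted p = 0.003). Stxbp5l, a gene of vesicle release, was 136, 144 and 148 at P5 in cKO and at the floor in the other 9 libraries (1.49 ± 0.14, adjusted p = 0.003). Stxbp5l entered the test through P5 cKO alone, so the filter fixed the direction of its difference. Otogl, the gene of an otogelin-like protein, was at the floor at E15.5 and at 246, 242 and 259 at P5 in cKO, and 50, 50 and 50 at E15.5 and 84.6, 50 and 50 at P5 in WT (2.04 ± 0.26, adjusted p = 0.022). Without its P5 cKO values Otogl too would not have passed the filter. Kcnh1, a potassium channel gene, was 50, 62.8 and 50 at E15.5 and 265, 308 and 339 at P5 in cKO and 50, 50 and 50 at E15.5 and 85.4, 53.2 and 67.8 at P5 in WT (2.04 ± 0.26, adjusted p = 0.022). Kcnk1, the gene of another potassium channel, was 230.3, 209 and 229.8 at E15.5 and 438, 586 and 631 at P5 in cKO and 276.5, 228 and 214 at E15.5 and 164, 161 and 197 at P5 in WT (1.74 ± 0.24, adjusted p = 0.029). Lypd1 was 201, 159.8 and 206 at E15.5 and 188, 162 and 197 at P5 in cKO, without a called change, and 166, 142 and 159 at E15.5 and 50, 50 and 50 at P5 in WT (1.57 ± 0.20, adjusted p = 0.023). The Rgr interaction passed in every alternative fit run. Those of Ttr, Ism2 and Stxbp5l passed in every fit that tested them and kept at least 2 P5 cKO libraries. Ism2 and Stxbp5l were too low to be tested among genes with a mean of at least 4 times the floor. The interactions of Kcnh1, Otogl, Kcnk1 and Lypd1 were each lost in several fits without a single library, with adjusted p up to 0.11 without P5 cKO replicate 3, 0.11 without P5 cKO replicate 3, 0.16 without E15.5 cKO replicate 2 and 0.12 without E15.5 WT replicate 1.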

How the data were processed

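Poly(A) RNA of RPE from C57BL/6J mice was sequenced in 12 libraries, 3 each of Sox9.cKO and WT at E15.5 and at P5. Per the submitters' processing notes the tools were TopHat2 2.0.10 and HTSeq, with the mm10 build and no stated strandedness of counting. The deposited signal values are gene counts that the authors quantile-normalised and set to a floor of 50, per the file name and the values: all 12 libraries hold the same sorted values, with 1376 (9.87%) at the floor and a median of 367.4. Depth is unknown, so no count model and no counting interval could be used.

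Values were tested as log2(value + 1) with limma 3.58.1 (R 4.3.3), with 1 mean per group over all 12 libraries, so that the groups share 1 estimate of the spread (8 residual degrees of freedom), a mean-variance trend and Benjamini-Hochberg adjustment over the 13523 genes that exceeded the floor in 3 or more of the 12 libraries. Adjusted p in the text are from this fit unless a setting is named. The interaction is the cKO change minus the WT change. An exact permutation test of 3 against 3 cannot go below p = 0.1. The scripts were tested on simulated data with 13520 genes, where 70% of 2-fold and 92% of 4-fold changes were recovered with 8 false calls among 13320 unchanged genes. There the noise was independent between libraries, each gene had 1 spread in all groups, and the few changed genes lay above 4 times the floor. In the data the spread was larger at P5 and far more genes were called, so these rates need not hold for the calls above.

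The members and the 49 gene lists were chosen with earlier results of these data known. Named genes are Sox9, the 15 largest rises and 15 largest falls without overlap, every called interaction, and in each list up to 4 members (10 in the RPE lists), called ones first and then by size of change; members outside this rule, named to complete a small count or for their promoters, were chosen after their values were seen. Deviations from the group mean in same-numbered libraries of the 2 ages had r of -0.36, 0.05 and -0.02 over members. Libraries of different numbers gave -0.36 to 0.31. Deviations from a mean of 3 libraries are tied to each other, so these values cannot show or exclude a pairing. The main fit used none. Alternatives were other pseudocounts and filters, a replicate block, a photoreceptor term, array weights, no trend, the 6 cKO libraries alone, and libraries left out; the counts of each list under them were added after seeing the data. Promoters are from the RefSeq table (GRCm38.p6) and annotation from GENCODE M21. Some genes of the lists are counted in them but not reported here by name.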

Additional observations from a re-analysis of the deposited data

Results flagged for a closer look

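For 8 genes the change with age differed between the libraries labelled cKO and WT by the interaction term of the limma fit, with adjusted p over 13523 genes. The log2 change in cKO minus that in WT was 3.87 for Ttr, 2.07 for Ism2, 2.04 for Otogl, 2.04 for Kcnh1, 1.74 for Kcnk1, 1.57 for Lypd1, 1.49 for Stxbp5l and -6.02 for Rgr. In Ism2, Otogl, Kcnh1 and Stxbp5l the 3 P5 cKO libraries lay above the other 9, and in Lypd1 the 3 P5 WT libraries stood at the floor while the other 9 did not. Stxbp5l and Otogl passed the filter only because of their P5 cKO libraries, which for Stxbp5l fixed the direction.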

How the results depend on the processing

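The counts of genes that rose (2376) and fell (3522) stayed within 1.5 times under other pseudocounts (0 and 25), other filters on low values, array weights, no trend, a fit of the 6 cKO libraries alone, the replicate block and a term for the photoreceptor list, the last giving 3450 and 4634. The photoreceptor term was centred within each group, so it altered the estimate of the spread and not the changes. Leaving out 1 library gave 1757 to 2999 rises and 2641 to 4206 falls. With P5 cKO replicates 2 and 3 left out, 1228 genes rose and 1510 fell, with 1 P5 cKO library assumed to vary like the other groups, and 1 interaction was called. The 8 interactions became 2 among genes with a mean of at least 4 times the floor, 32 with array weights, and 4 to 24 without 1 library, 24 without P5 cKO replicate 1 and 16 without P5 WT replicate 3. The cause was not tested. With the replicate number as a block, 2371 genes rose, 3494 fell and 6 interactions were called, where the labels say nothing of a pairing. Of 261 called cKO changes named in the text, 163 passed under every alternative, 98 were lost under at least 1 and none changed sign. Values at the floor limit what can be said of genes that are low at either age.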
